A study of Mus musculus with 12 samples.

Results

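Mouse embryonic fibroblasts knocked out for Casp8 and Mlkl were compared with the same cells after Casp8 had been put back, across all genes. The 6 RNA sequencing libraries of this Casp8 line were chosen by their titles from 12 in the series. The other 6 come from a second line, knocked out for Fadd and Mlkl and given an empty vector or Fadd. All cells were immortalised with SV40 large T antigen, untreated and harvested 24 h after plating. The knockout group (3 cultures) carried an empty vector. The put-back group (3 cultures) carried a vector that drives Casp8, so its Casp8 does not come from the cells' own promoter. Both groups of the line lack functional Mlkl by label, so the contrast concerns Casp8 on an Mlkl-deficient background. The cultures are called independent in the labels, and the clonal origin of the line is not stated.

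Caspase-8 is the protease that death receptors activate through the adaptor FADD to start apoptosis. It also cleaves RIPK1 and RIPK3, the kinases that would otherwise activate MLKL, the protein that breaks the plasma membrane in necroptosis. ZBP1, named in the title of the series, senses nucleic acids in an unusual double helix form and can engage RIPK3. Many of these genes, Zbp1 among them, are also targets of interferons, which fibroblasts both make and respond to.

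Values are CPM (counts per 1e+06 counts, scaled by TMM). Each change is the log2 ratio of knockout over put back with its standard error (SE), so it is above 0 where the gene was higher in the cells lacking caspase-8. A gene is called at an adjusted p under 0.05 by edgeR over the 16396 genes tested. Total counts ran from 33918359 to 59388559 per library. Libraries of the same replicate number are compared as pairs where stated, as the difference in log2(CPM + 0.5). Nothing in the labels tells what a replicate number marks, and the p-values measure only the spread between these cultures.

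Replicate 1 stood apart in both groups, and this touches every result below. Knockout replicate 1 differed more than 2-fold from the mean of the other knockout libraries in 2152 genes (13.1%), and put-back replicate 1 from its own group in 1707 (10.4%). The other 4 libraries did so in 354 to 1172 genes. The first principal component (44.6% of the variance of the 6 libraries) placed knockout replicate 1 at -60.1 and put-back replicate 1 at -33.5, with the other 4 libraries between 10.2 and 43.0. Both replicate 1 libraries lay above all 4 others in 2645 genes (16.1%) and below all 4 in 2854 (17.4%). Values without these 2 libraries are given for the main counts and lists and for many of the genes named.

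Y chromosome transcripts, examined after the data were seen, also set replicate 1 apart. Ddx3y, an RNA helicase gene on the Y chromosome (1260771 to 1286629), was at 115 and 112 CPM in knockout replicates 2 and 3 and at 134 and 120 CPM in put-back replicates 2 and 3. It was at 24.1 CPM in knockout replicate 1 and at 61.7 CPM in put-back replicate 1. The histone demethylase genes Kdm5d and Uty and the translation factor gene Eif2s3y were likewise lowest in knockout replicate 1 and next lowest in put-back replicate 1. The 4 genes stood at 16.3% to 31.5% of the level of the other knockout libraries in knockout replicate 1, and at 39.6% to 49.7% of the level of the other put-back libraries in put-back replicate 1. Casp8 itself stood at 38.2% of the other put-back libraries in put-back replicate 1. No library of the Fadd line held more than 0.0182 CPM of any of the 4. Whether fewer cells carried a Y chromosome in replicate 1 or each cell held less of these RNAs cannot be told apart in bulk samples, and the part of either in the results below was not tested.

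Genes that separate the 2 lines gave a related picture. Of 13 genes at 5 CPM or more in all 6 Fadd-line libraries and under 0.5 CPM in replicates 2 and 3 of the Casp8 line, 9 reached 1 CPM in knockout replicate 1 and 3 did in put-back replicate 1. Of 37 genes with the opposite pattern, 15 were under 1 CPM in knockout replicate 1 and 6 in put-back replicate 1. Their median level was 7.54% of the other knockout libraries in knockout replicate 1 and 34.3% of the other put-back libraries in put-back replicate 1. When replicate 2 or 3 was held out in the same way, 0 of 3 and 0 of 10 genes crossed the line in each of those 4 libraries. Replicate 1 then had to meet the limits itself, which left out the genes that departed in it. The 0 is therefore no fair comparison for replicate 1. In knockout replicate 1 most of the 13 Fadd-line genes reached 1 CPM, and in both replicate 1 libraries many Casp8-line genes were low. The 9 genes include Hoxb2, Hoxb6, Hoxb7, Hoxb9 and Hoxb13, which belong to 1 cluster and are not independent. Tbx20 stayed at 0.392 CPM in knockout replicate 1, against 21.7 to 52.4 CPM in the Fadd line. Zic1, Alx1 and C130071C03Rik were at 0.207 to 0.230 CPM there, against at most 0.0460 CPM in knockout replicates 2 and 3. In put-back replicate 1 they were at 0.0583 to 0.253 CPM, against 0 in put-back replicates 2 and 3. These 3 genes were thus slightly raised in replicate 1, at levels far below those of the Fadd line. Whether cells of the lines were mixed in these cultures was not tested, so what a replicate 1 value stands for is uncertain.

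Casp8 (ENSMUSG00000026029.14, mm10 chromosome 1, 58795374 to 58847503) was the only gene called. Its level was 12.4, 11.3 and 10.4 CPM in the knockout libraries and 67.6, 172 and 182 CPM in the put-back libraries. The groups did not overlap, and put-back replicate 1 had the lowest level of the put-back group. In the 6 libraries of the Fadd line, where Casp8 was not knocked out, it was at 39.3 to 54.5 CPM. All put-back libraries were above that range, replicates 2 and 3 by the most. The contrast thus sets loss of Casp8 against a level above that of the Fadd line. Casp8 was lower without the vector by a log2 change of -3.63 (SE 0.325, edgeR adjusted p = 0.00371). The call was kept under a replicate block for each line (adjusted p = 0.0463) and without both replicate 1 libraries (4.5e-05). It was lost when the fit held only the 6 libraries of the line (0.28) and without knockout replicate 2 (0.0707). The Casp8 reads that remain in the knockout libraries were not resolved by exon.

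No other gene passed edgeR, so 1 of 16396 genes was called (0.0061%). Without adjustment 930 genes (5.67%) had a p under 0.05, of which 675 were higher (4.12%) and 255 lower (1.56%), and 819.8 would fall there by chance. DESeq2 called 143 genes (0.877%), 132 higher (0.809%) and 11 lower (0.0674%). With limma-voom only Casp8 was called, and 751 genes (4.58%) had an unadjusted p under 0.05, 512 higher (3.12%) and 239 lower (1.46%). The 3 knockout libraries lay above all 3 put-back libraries in 947 genes (5.78%) and below in 805 (4.91%). Without both replicate 1 libraries edgeR called 111 genes (0.658%), 99 higher (0.587%) and 12 lower (0.0712%). With the same libraries left out and the replicate block kept it called 4136 of 16864 genes tested, 2192 higher and 1944 lower. Without all 4 replicate 1 libraries of the series it called 2923 of 16419. These fits leave 2 libraries in each group of the line. A block on the replicate number in each line gave 6 calls (0.0366%), 5 of them higher (0.0305%).

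**Figure D1:**
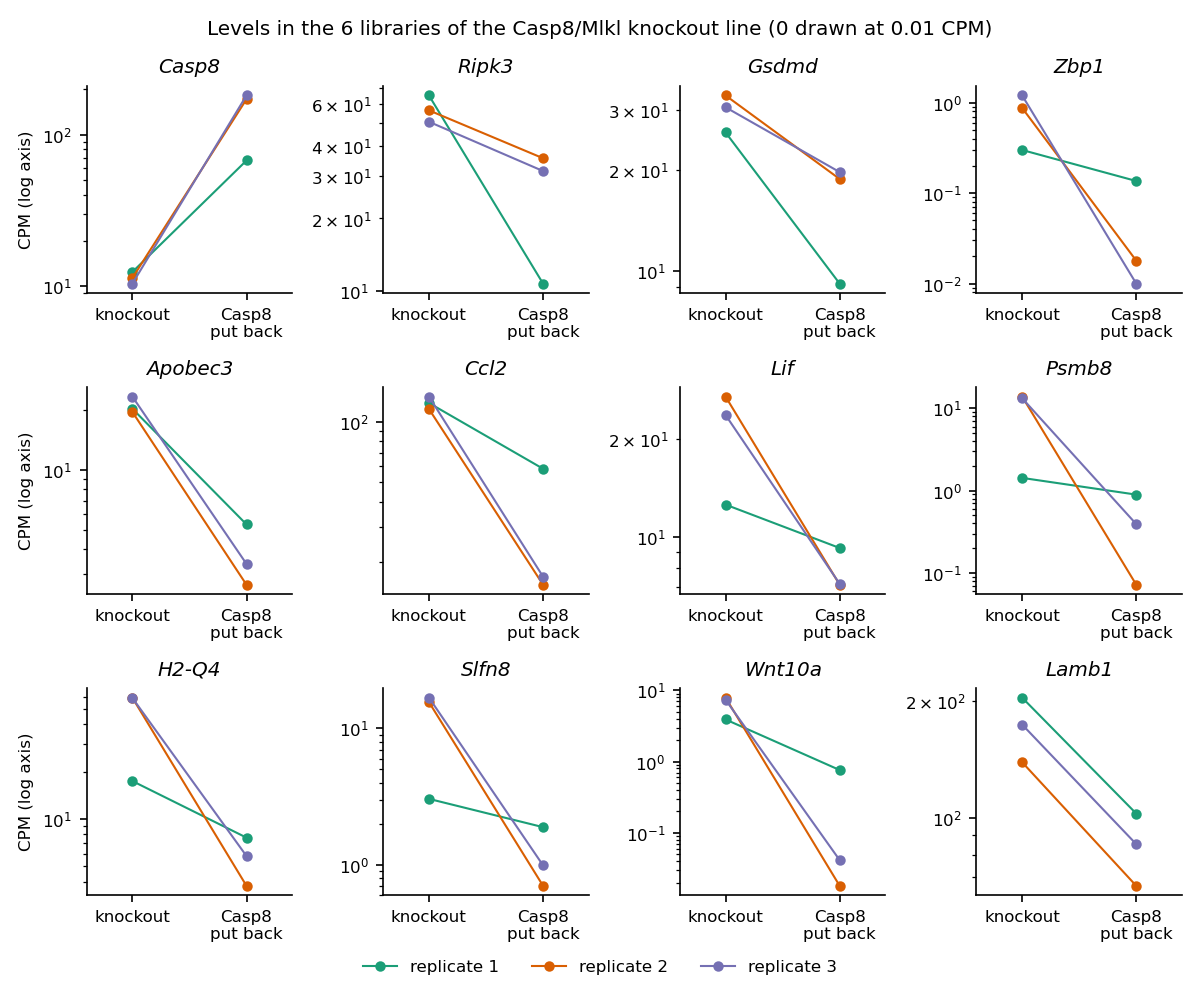
CPM (log axis) of 12 genes in the 6 libraries of the Casp8 line. Each point is 1 library and each line joins the knockout and put-back library of 1 replicate number (green 1, orange 2, purple 3). Casp8 rises toward the put-back group in all pairs, while for Psmb8, H2-Q4 and Slfn8 the line of replicate 1 is flatter than the other two.

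Among the genes of the death pathways, Casp8 was the only one called of 30 tested. The list had a median log2 change of 0.16, with 22 members above 0, beside a median of 0.01 over all genes tested. Knockout libraries lay above all put-back libraries in 6 members and below in 4, beside 5.78% and 4.91% of all genes. Ripk3, the kinase that acts on MLKL (ENSMUSG00000022221.14, chromosome 14, 55784995 to 55788865), was at 65.2, 56.5 and 50.6 CPM without caspase-8 and at 10.7, 35.7 and 31.5 CPM with it. The groups did not overlap, and put-back replicate 1 was the lowest. The log2 change of 1.15 (SE 0.355) did not pass (edgeR adjusted p = 0.647), and it was 0.67 without both replicate 1 libraries.

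Gsdmd, which codes for the pore-forming protein of pyroptosis, was at 25.8, 33.2 and 30.7 against 9.18, 18.8 and 19.7 CPM. All 3 knockout libraries were higher, and the log2 change was 0.91 (SE 0.304, edgeR adjusted p = 0.666), or 0.73 without both replicate 1 libraries. Zbp1 was at 0.300, 0.874 and 1.20 CPM without caspase-8 and at 0.136, 0.0179 and 0 CPM with it. These are low levels in every library of the Casp8 line, and the groups did not overlap. Its log2 change of 3.87 (SE 1.37) did not pass (edgeR adjusted p = 0.701; 0.215 without both replicate 1 libraries).

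The remaining core members were nearly level. Ripk1, the kinase upstream of RIPK3, had a log2 change of 0.16 (SE 0.145), with 76.1, 84.0 and 76.4 against 58.5, 76.3 and 77.2 CPM. Cflar, which codes for the caspase-8 inhibitor and partner cFLIP, had 44.5, 52.9 and 55.8 against 42.2, 50.7 and 54.5 CPM, and its small change turned sign without knockout replicate 3 or put-back replicate 1. Fadd had a log2 change of 0.11 and Mlkl of 0.23. Mlkl transcripts were present in every library (3.69 to 9.46 CPM), which says nothing of its protein.

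The type I interferon response genes were higher without caspase-8 in pairs 2 and 3 and level in pair 1. Interferons act through receptors, kinases and transcription factors on a promoter element to induce antiviral genes. Of 58 tested members, 55 had a log2 change above 0, with a median of 2.05. None was called by edgeR, 36 were higher at an unadjusted p under 0.05 (4.12% of all genes were), and DESeq2 called 14 higher (0.809% of all genes). In 19 members the knockout libraries lay above all put-back libraries, and in 1, Ifit2, below, beside 5.78% and 4.91% of all genes. The median difference was 2.11 in pair 2 and 1.88 in pair 3, with 57 of 58 members above 0 in each. In pair 1 it was -0.12, with 23 of 58 above 0. Without both replicate 1 libraries the median change was 3.03 and 3 members were called (Ifi27, Samd9l and Lgals9).

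Single members show the same shape. Slfn8, a Schlafen gene induced by interferon (ENSMUSG00000035208.16, chromosome 11, 83002158 to 83020810), was at 3.04, 15.6 and 16.8 CPM without caspase-8 and at 1.89, 0.699 and 0.988 CPM with it. Knockout replicate 1 lay close to the put-back libraries, and the groups did not overlap (log2 change 3.31, SE 0.877, edgeR adjusted p = 0.485; 4.26 and 0.0968 without both replicate 1 libraries). Oasl2, an oligoadenylate synthetase-like gene, was at 2.33, 21.0 and 16.7 against 2.02, 0.233 and 0.453 CPM (log2 change 3.88). Here put-back replicate 1 was several-fold above its group and knockout replicate 1 several-fold below.

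Usp18, which codes for a protease that removes ISG15 from proteins, was at 1.08, 19.0 and 11.5 against 0.894, 0.663 and 0.741 CPM. Parp14, an interferon-induced ADP-ribosyltransferase gene, was at 10.5, 41.3 and 46.9 against 5.81, 2.12 and 3.56 CPM (log2 change 3.10, SE 0.703, edgeR adjusted p = 0.37; 3.96 and 0.0628 without both replicate 1 libraries). Knockout replicate 1 was the lowest of the knockout group in both. Ifi47, an interferon-induced GTPase gene, followed the same order, at 5.30, 15.8 and 17.5 against 3.99, 2.10 and 1.87 CPM. Reads of the Oas, Slfn and Gbp families cannot always be assigned to 1 member.

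The signalling genes of the pathway differed less. All 14 tested members of the list of interferons, receptors and JAK-STAT genes had a log2 change above 0, but the median was 0.19. No member was called by edgeR or DESeq2. At an unadjusted p under 0.05 by edgeR, 2 were higher (4.12% of all genes). Irf9, a DNA-binding factor of the pathway, was at 11.3, 56.5 and 48.4 against 12.9, 15 and 16.1 CPM. Stat2 was at 10.0, 35.0 and 35.8 against 21.9, 9.70 and 10.3 CPM. In both genes knockout libraries 2 and 3 were above the put-back group. Knockout replicate 1 was below it in Irf9 and within it in Stat2, so the groups overlapped. Ifngr2, a chain of the interferon gamma receptor, was at 61.8, 75.4 and 76.5 against 51.1, 41.8 and 36.8 CPM, without overlap.

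The element through which type I interferons act, the interferon-stimulated response element, has the core GAAANNGAAA. This core was searched on both strands of RefSeq promoter windows (GRCm38.p6, 250 bases before to 50 after a start). It was found in 21 of 45 type I interferon genes with a window (46.7%) and in 13 of 30 genes of the antigen presentation list (43.3%). Over all 32851 windows of this length the share was 3.44%, and over 10561 tested genes it was 3.71%. Within the last 150 bases before the start alone, 1.59% of all windows held it. The 4 stretches below are the 150 bases before a start of Apobec3, a restriction factor described further on, and of 3 interferon list members that did not overlap between groups. They are shown because they carry the core, which is in capitals. On the opposite strand it reads TTTCNNTTTC, and matches may overlap one another.
Apobec3: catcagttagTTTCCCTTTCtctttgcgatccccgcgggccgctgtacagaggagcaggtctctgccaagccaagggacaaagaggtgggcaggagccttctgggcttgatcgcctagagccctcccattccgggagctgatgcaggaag
Slfn8: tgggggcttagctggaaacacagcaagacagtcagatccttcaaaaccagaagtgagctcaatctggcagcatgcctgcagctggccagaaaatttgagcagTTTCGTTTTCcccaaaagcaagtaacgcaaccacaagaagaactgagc
Isg15: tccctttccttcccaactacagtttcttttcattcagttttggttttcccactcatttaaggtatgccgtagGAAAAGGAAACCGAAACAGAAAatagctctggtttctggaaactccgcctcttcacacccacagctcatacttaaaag
Rsad2: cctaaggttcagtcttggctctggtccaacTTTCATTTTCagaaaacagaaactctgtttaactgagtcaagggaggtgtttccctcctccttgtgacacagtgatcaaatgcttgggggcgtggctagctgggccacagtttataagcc

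The Apobec3 stretch is chr15:79892258-79892407 on the plus strand and its match begins 140 bases before the start. The Slfn8 stretch is chr11:83020811-83020960 on the minus strand, with a match that begins 48 bases before the start. The Isg15 stretch is chr4:156200819-156200968 on the minus strand and holds 3 overlapping matches, which begin 78 to 66 bases before the start. The Rsad2 stretch is chr12:26456453-26456602 on the minus strand, with a match that begins 120 bases before the start. A match is a description of the letters and not evidence of binding. Isg15, a ubiquitin-like modifier, was at 3.57, 27.2 and 15 against 2.64, 1.85 and 2.88 CPM. Rsad2, which codes for the antiviral enzyme viperin, was at 0.438, 3.61 and 4.01 against 0.194, 0.0896 and 0.165 CPM. In both genes, as in Slfn8, knockout replicates 2 and 3 were far above the put-back group and knockout replicate 1 was above it by less. Isg15 and Rsad2 were chosen for their promoters after their values were seen.

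Genes of antigen presentation and the interferon gamma response behaved like the type I list. Of 38 tested members, 37 had a log2 change above 0 (median 2.06), and knockout libraries lay above all put-back libraries in 20 (5.78% of all genes did). None was called by edgeR, 23 were higher at an unadjusted p under 0.05 (4.12% of all genes), and DESeq2 called 14 higher (0.809% of all genes). Without both replicate 1 libraries the median was 2.68 and 2 members were called. The median difference was 0.09 in pair 1, 1.63 in pair 2 and 2.09 in pair 3. Gbp3 and Ifi47 belong to both lists.

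Psmb8, a subunit of the immunoproteasome that trims peptides for class I molecules (ENSMUSG00000024338.15, chromosome 17, 34197721 to 34201454), was at 1.43, 13.9 and 13.3 CPM without caspase-8 and at 0.894, 0.0717 and 0.391 CPM with it. The difference between pair 1 and the others was large on both sides, since knockout replicate 1 was low and put-back replicate 1 high for its group. The log2 change was 4.40 (SE 1.02, edgeR adjusted p = 0.37), and Psmb8 was called without both replicate 1 libraries (log2 change 5.90, adjusted p = 0.0428). H2-Q4, a nonclassical class I gene, was at 17.4, 59.1 and 58.9 against 7.62, 3.76 and 5.82 CPM (log2 change 2.98, SE 0.622, edgeR adjusted p = 0.316; 3.62 and 0.0633 without both replicate 1 libraries). H2-Q7 was at 2.54, 7.11 and 6.27 against 0.778, 0.0717 and 0.144 CPM. Class I genes of the Q region are close copies, so their reads are uncertain.

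NF-kappaB targets and inflammatory genes were higher without caspase-8 in all 3 pairs, though none was called by edgeR. NF-kappaB is a family of transcription factors that induces cytokines, chemokines and its own inhibitors. Of 28 tested members 26 had a log2 change above 0, with a median of 0.69, or 0.85 without both replicate 1 libraries. In 14 members the knockout libraries lay above all put-back libraries, and in 0 below, beside 5.78% and 4.91% of all genes. Medians were 0.44, 0.87 and 0.76 in pairs 1 to 3, with 23, 24 and 24 members above 0. DESeq2 called 4 members higher (0.809% of all genes), and 13 were higher at an unadjusted p under 0.05 by edgeR (4.12% of all genes).

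Ccl2, the chemokine that draws monocytes (ENSMUSG00000035385.5, chromosome 11, 82035571 to 82037453), was at 125, 116 and 134 CPM without caspase-8 and at 58.4, 15.3 and 16.8 CPM with it. The knockout libraries were close together, and put-back replicate 1 was the highest of its group. The log2 change was 2.05 (SE 0.498, edgeR adjusted p = 0.406), and Ccl2 was called without both replicate 1 libraries (log2 change 2.96, adjusted p = 0.0296). Lif, an IL-6 family cytokine gene, was at 12.6, 27.0 and 23.7 against 9.24, 7.12 and 7.16 CPM, and was called on the same terms (adjusted p = 0.261 with all libraries, 0.0296 without replicate 1, edgeR). Bcl3, an atypical NF-kappaB inhibitor gene, was at 3.69, 10.3 and 11.2 against 3.11, 2.94 and 2.84 CPM and was called without replicate 1 (0.0397). Cxcl16 was at 1.08, 2.97 and 3.81 against 0.253, 0.430 and 0.597 CPM, also without overlap between groups.

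Apobec3, a cytidine deaminase that restricts retroviruses (ENSMUSG00000009585.18, chromosome 15, 79891659 to 79915906), came closest to a call after Casp8. It was at 20.3, 19.6 and 23.4 CPM without caspase-8 and at 5.33, 2.65 and 3.38 CPM with it. The knockout libraries were close together, replicate 1 included, while put-back replicate 1 was the highest of its group. The differences in pairs 1 to 3 were 1.84, 2.67 and 2.62. The log2 change of 2.48 (SE 0.32) had an edgeR adjusted p of 0.0644. It was 0.115 under the block and 0.0296 without both replicate 1 libraries, and DESeq2 gave 2.95e-10. Of the rest of the list of retroelement restriction and silencing (29 tested, median -0.02, 14 above 0), Bst2, which tethers virions to the membrane, was at 17.2, 82.6 and 49.8 against 10.8, 16.6 and 17.6 CPM, with overlap. Zc3hav1, an antiviral zinc finger gene, was at 186, 169 and 170 against 127, 127 and 141 CPM (log2 change 0.41). Setdb1, a histone methyltransferase gene that silences retroelements, was at 93.1, 81.1 and 88.5 against 84.6, 76.3 and 70.3 CPM, with overlap.

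Sensors of nucleic acids were mixed. The list had a median log2 change of 0.41 over 23 tested members, 17 of them above 0. None was called by edgeR, and DESeq2 called 2 higher (0.809% of all genes). At an unadjusted p under 0.05 by edgeR, 6 were higher (4.12% of all genes). Unc93b1, which carries nucleic acid-sensing Toll-like receptors to endosomes, was at 4.93, 1.68 and 2.69 against 0.194, 0.0717 and 0.412 CPM (log2 change 3.78, SE 0.764, edgeR adjusted p = 0.261). Tmem173, which codes for STING, was at 33.7, 24.3 and 25.7 against 16.6, 5.75 and 8.73 CPM, and was called without both replicate 1 libraries (log2 change 1.79, edgeR adjusted p = 0.0382). In both genes knockout replicate 1 was the highest library of the Casp8 line, unlike in the interferon list. Dhx58, a RIG-I family gene also on the interferon list, was at 1.73, 9.18 and 6.94 against 2.27, 0.896 and 1.11 CPM, so that pair 1 went the other way.

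**Figure D2:**
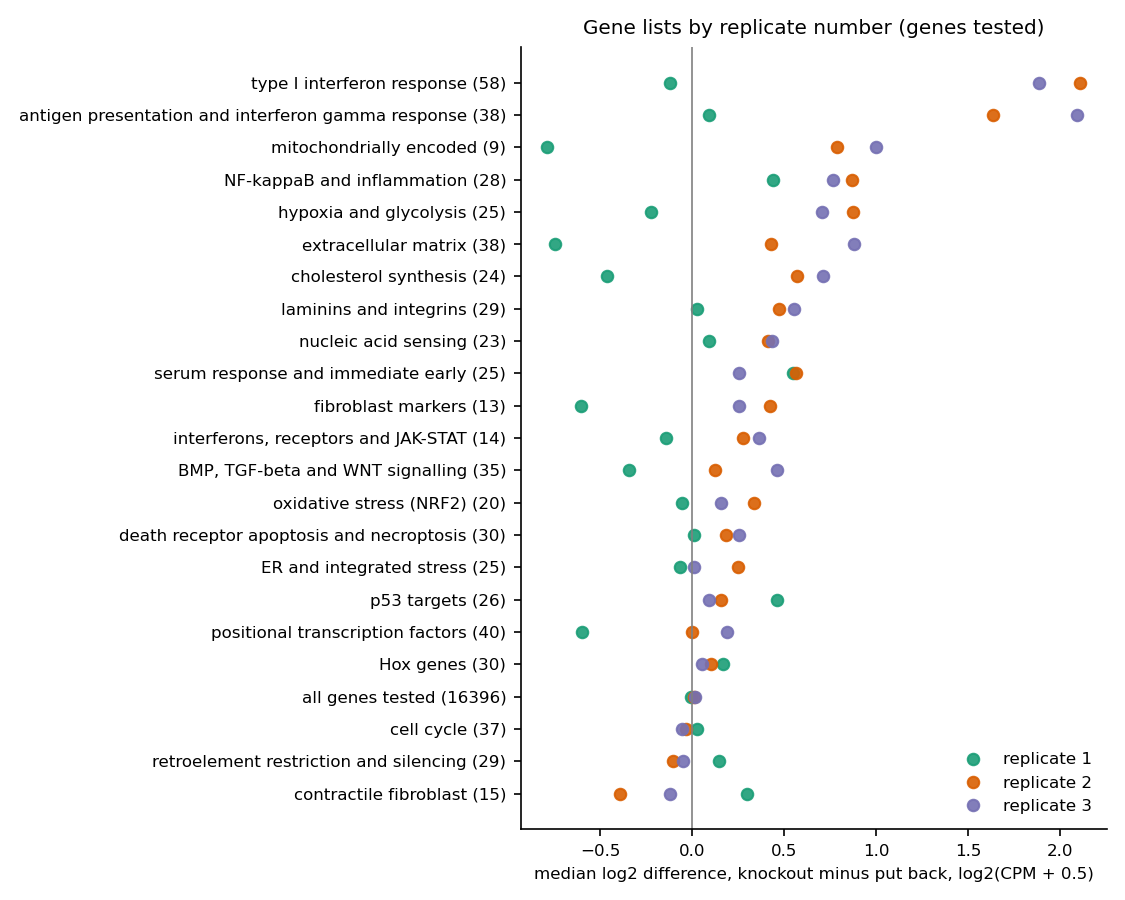
Median difference of knockout minus put back in log2(CPM + 0.5) for each gene list with at least 9 tested genes, 1 point per replicate number (green 1, orange 2, purple 3), with the number of genes in brackets. The type I interferon list reads -0.12, 2.11 and 1.88, while the NF-kappaB list is above 0 in all 3 and all genes tested sit at 0.

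The other lists show how far pair 1 went its own way. Cholesterol synthesis genes had medians of -0.47, 0.57 and 0.71 in pairs 1 to 3, with 3, 24 and 24 of 24 members above 0. Srebf2, the regulator of the pathway, was at 228, 236 and 252 against 222, 158 and 166 CPM. Put-back replicate 1 was the highest of its group. Genes encoded by the mitochondrial genome had medians of -0.79, 0.79 and 1.00 over 9 tested. mt-Nd4, a complex I subunit, was at 40.5, 123 and 129 against 87.2, 29.8 and 30.1 CPM. It was called without both replicate 1 libraries (log2 change 2.07, edgeR adjusted p = 0.0296), as were mt-Nd2, mt-Nd4l and mt-Nd5.

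Extracellular matrix genes had medians of -0.74, 0.43 and 0.88 in pairs 1 to 3 over 38 tested, with no call by edgeR or DESeq2. At an unadjusted p under 0.05 by edgeR, 5 were higher (4.12% of all genes). Col8a1, a short-chain collagen, was at 280, 303 and 304 against 250, 134 and 127 CPM, and Bgn, the proteoglycan biglycan, at 190, 472 and 570 against 310, 193 and 151 CPM. Both were called without replicate 1 (edgeR adjusted p = 0.0397 and 0.0386). Fbln1, the matrix protein fibulin 1, was at 4.98, 26.3 and 29.5 against 7.52, 8.10 and 7.04 CPM. Col4a1, a basement membrane collagen, was at 544, 222 and 230 against 88.8, 236 and 180 CPM, so only pair 1 differed by much.

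Hypoxia and glycolysis genes had medians of -0.23, 0.88 and 0.71. Slc16a3, a lactate exporter (ENSMUSG00000025161.16, chromosome 11, 120948480 to 120960868), was at 37.4, 15.5 and 18.4 against 2.7, 0.269 and 2.39 CPM. It did not overlap between groups (log2 change 3.74, SE 0.809, edgeR adjusted p = 0.345), and pair 1 shared the direction. Hk2, a hexokinase gene, was at 62.0, 55.3 and 62.5 against 50.9, 31.8 and 38.1 CPM. Slc7a11, the cystine transporter and an NRF2 target, was at 0.415, 30.3 and 31.7 against 8.56, 0.753 and 0.926 CPM. Pair 1 was reversed in Slc7a11, with both replicate 1 libraries far from their groups.

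Cell cycle genes were level, with a median log2 change of -0.03 over 37 tested and no call by edgeR or DESeq2. At an unadjusted p under 0.05 by edgeR, 2 were higher (4.12% of all genes). Ccnb2, a mitotic cyclin gene, was at 83.3, 82.0 and 76.4 against 68.9, 51.1 and 48.1 CPM, and Mcm7, a replicative helicase gene, at 276, 295 and 278 against 318, 347 and 355 CPM. The p53 targets had a median of 0.22 over 26 tested, also with no edgeR call. At an unadjusted p under 0.05 by edgeR, 3 were higher and 1 lower (4.12% and 1.56% of all genes). DESeq2 called 1 higher (0.809% of all genes). Gadd45a, a growth arrest gene, was at 7.56, 16.7 and 13.5 against 6.38, 4.16 and 4.61 CPM and was called without replicate 1 (edgeR adjusted p = 0.0296). Plk2, a polo-like kinase gene, was at 476, 235 and 198 against 145, 154 and 164 CPM, with knockout replicate 1 the highest.

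The largest differences were found mostly in genes higher without caspase-8, and none of those was called by edgeR with all libraries. Protein-coding genes with an unadjusted p under 0.05, no overlap and a mean of 5 CPM or more in either group numbered 199 higher and 147 lower. The 8 highest by fitted change were Wnt10a, Psmb8, H2-Q7, Oasl2, Usp18, Slc16a3, Slfn8 and Gpx7. DESeq2 called all 8 (adjusted p 0.000171 for Wnt10a to 0.00736 for Usp18), and limma-voom called none of them. The 8 were picked from these same counts, so the DESeq2 calls are no separate support. Wnt10a, a secreted WNT ligand (ENSMUSG00000026167.14, chromosome 1, 74791516 to 74804179), was at 3.90, 7.89 and 7.38 CPM without caspase-8 and at 0.758, 0.0179 and 0.0412 CPM with it. Its log2 change was 4.54 (SE 0.968, edgeR adjusted p = 0.342), and 7.92 (adjusted p = 0.000513) without both replicate 1 libraries. Gpx7, a peroxidase of the endoplasmic reticulum, was at 6.66, 7.75 and 9.37 against 0.428, 1.33 and 0.720 CPM, with all 3 pairs alike (log2 change 3.26, SE 0.667, edgeR adjusted p = 0.354).

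The 8 lowest by the same rule were Casp8, Cyp26b1, Galnt13, Btbd11, Fam220a, Socs2, Gas6 and Zkscan14, and only Casp8 was called. Btbd11 was at 11.1, 9.82 and 10.3 CPM without caspase-8 and at 12.7, 35.1 and 28.7 CPM with it, so that pair 1 was nearly level. Gas6, which activates receptor kinases such as AXL, was at 12.2, 34.0 and 30.6 against 69.0, 58.3 and 45.0 CPM. Cyp26b1, which degrades retinoic acid, was at 0.415, 1.63 and 2.02 against 12.6, 3.67 and 2.18 CPM, with put-back replicate 1 the highest by far. Zkscan14, a zinc finger gene, was at 2.7, 4.19 and 3.66 against 6.03, 7.91 and 8.97 CPM, with all pairs alike (log2 change -1.12, SE 0.284, edgeR adjusted p = 0.45; DESeq2 0.0279). Socs2, a feedback inhibitor of cytokine signalling, was at 2.14, 3.38 and 10.4 against 11.2, 13.3 and 11.7 CPM.

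With the replicate block within each line, edgeR called 5 genes higher beside Casp8, namely Lamb1, Grem1, Slco2a1, Hoxb9 and Pax6. A block over all 12 libraries called 0 genes higher, and a block in the 6 libraries of the line called 0 genes, Casp8 included. Lamb1, a laminin chain of basement membranes (ENSMUSG00000002900.16, chromosome 12, 31265234 to 31329644), was at 205, 139 and 174 CPM without caspase-8 and at 102, 66.5 and 85.3 CPM with it. Levels differed between pairs, but each knockout library was about as far above its own partner (log2 differences of 0.996, 1.06 and 1.03). Its log2 change was 1.03 (SE 0.217), with an edgeR adjusted p of 0.326 without the block and 0.036 with it. Grem1, a secreted BMP antagonist (ENSMUSG00000074934.3, chromosome 2, 113746164 to 113758646), was at 3.71, 5.38 and 5.15 against 0.642, 0.609 and 0.679 CPM (edgeR adjusted p = 0.656, and 0.0296 with the block). Slco2a1, a prostaglandin transporter gene, was at 18.7, 3.93 and 3.81 against 2.84, 0.878 and 0.823 CPM. In Slco2a1 the pairs were alike in ratio although replicate 1 was higher in both groups (edgeR adjusted p = 0.487, 0.0358 with the block and 0.0296 without both replicate 1 libraries).

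Hoxb9 and Pax6 were near 0 outside knockout replicate 1, apart from 0.603 CPM of Hoxb9 in put-back replicate 1. Hoxb9, a homeobox gene of trunk identity, was at 14.2, 0.115 and 0.146 against 0.603, 0 and 0.0206 CPM, and its sign turned without knockout replicate 1 alone (log2 change -0.67). Without both replicate 1 libraries the changes were 3.43 for Hoxb9 and 4.93 for Pax6, not called (edgeR adjusted p = 0.0803 and 0.125). Pax6, a transcription factor gene of eye and brain, was at 3.16, 0.0690 and 0.0878 against 0.0389, 0 and 0 CPM, 143 counts against 2 (ratio 92.1, with a 95% counting interval of 25 to 767). The neighbours of Hoxb9 in the HoxB cluster had the same profile, with Hoxb7 at 5.85, Hoxb6 at 4.10 and Hoxb4 at 2.24 CPM in knockout replicate 1 and no more than 0.233 CPM in any other library of the line. In the Fadd line Hoxb9 was at 25.6 to 37.5 CPM and Pax6 at 1.67 to 5.35 CPM in every library. These intervals cover counting error alone.

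**Figure D3:**
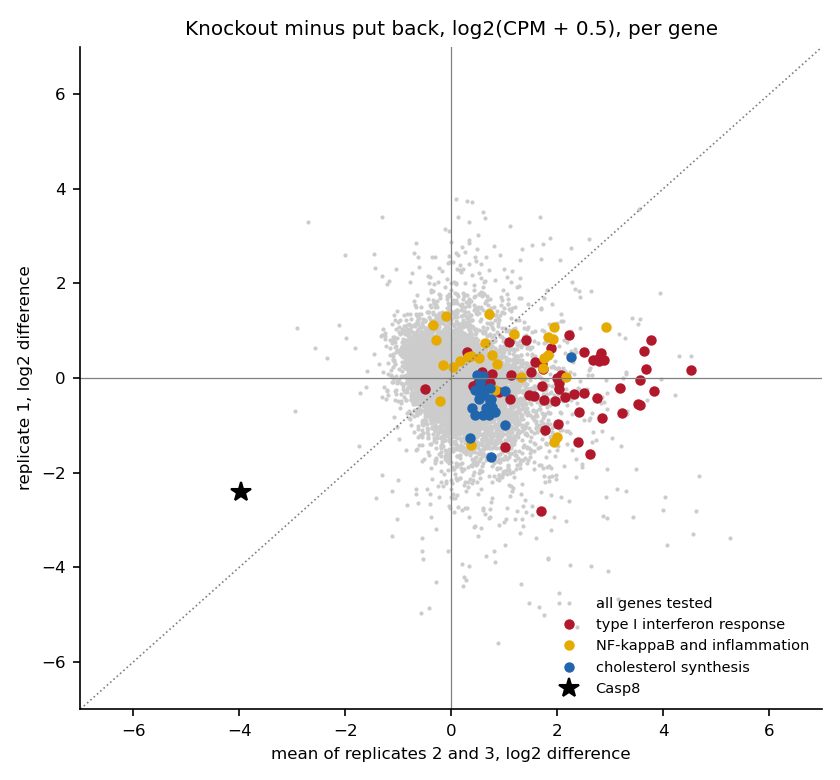
Each point is 1 of the 16396 genes tested, with the mean knockout minus put back difference of replicates 2 and 3 in log2(CPM + 0.5) on the horizontal axis and that of replicate 1 on the vertical axis. The type I interferon genes (red) spread to the right at about 0 on the vertical axis, most cholesterol genes (blue) lie right of and below 0, and Casp8 (star) is low on both.

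The 111 genes called without both replicate 1 libraries (no block) were mostly absent from pair 1. Of these, 107 were also tested with all libraries, and the pair 1 difference had the same sign in 35 of them (33 higher and 2 lower). It was at least 1 log2 unit the same way in 8. The median change of the 111 was 2.30 without replicate 1, against a median pair 1 difference of -0.35. List members among them included Lgals9 on the interferon list, at 13.3, 5.38 and 4.45 against 18.0, 0.251 and 0.350 CPM, and Trib3 and Sesn2, targets of the integrated stress response. Trib3 was at 3.87, 41.9 and 35.6 against 24.4, 1.79 and 2.00 CPM, so pair 1 ran opposite to the other two. Runx1, a transcription factor gene, was at 36.7, 45.5 and 60.3 against 30.6, 17.1 and 19.3 CPM, and Lama4, a laminin chain, at 0.945, 73.6 and 130 against 38.6, 14.4 and 12.2 CPM. With 2 libraries left in each group of the line, the spread is shared with the Fadd line.

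The genes that set replicate 1 apart in both groups were led by immediate early genes, which cells induce within minutes of a stimulus. Fos, a subunit of the transcription factor AP-1, was at 327 CPM in knockout replicate 1 and 269 CPM in put-back replicate 1, against 11.3 and 12.7 CPM in the other knockout libraries and 3.21 and 5.27 CPM in the other put-back libraries. Fosb was at 178 and 242 CPM in the replicate 1 libraries and at 0.556 to 1.20 CPM in the other 4. Of 25 genes on the list of serum response and immediate early genes, both replicate 1 libraries lay above all 4 others in 15 and below in 0. Over all genes these shares were 16.1% above and 17.4% below. Replicate 1 of the Fadd line had a like level of Fos within its own line, at 1137 and 1730 CPM against 25.2 to 48.2 CPM.

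The other 4 genes ranked highest in replicate 1 were Ccnd1, Id1, Aqp1 and Apln. Ccnd1, which codes for cyclin D1, was at 217, 29.0 and 17.8 CPM in the knockout libraries and at 89.5, 1.77 and 1.61 CPM in the put-back libraries. Id1, a BMP target, was at 96.6, 7.18 and 6.76 and at 82.0, 7.08 and 5.04 CPM. Aqp1, a water channel gene, was at 31.3, 9.52 and 5.71 and at 173, 7.46 and 6.96 CPM. In all of them replicate 1 was the highest of both groups, by differing amounts. Within each group of the Fadd line, replicate 1 was also the highest in Id1, Aqp1 and Apln. Ccnd1 went the other way there, at 37.0 and 22.8 CPM in replicate 1 against 72.0 to 152 CPM in the other libraries.

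The genes lowest in replicate 1 were Igfbp5, Khdrbs3, Actg2, C530008M17Rik, Pcdh7 and Postn. Postn, the matrix protein periostin, was at 10.4, 721 and 1062 CPM in the knockout libraries and at 222, 400 and 308 CPM in the put-back libraries. Actg2, a smooth muscle actin gene, was at 2.77, 37.6 and 35.7 and at 3.99, 91.0 and 49 CPM. Igfbp5, a binding protein of insulin-like growth factors, was at 0, 45.1 and 51.1 and at 3.21, 19.6 and 13.8 CPM. Both replicate 1 libraries lay below all others in 18 of 38 matrix genes and in 13 of 15 contractile genes, beside 17.4% of all genes. These 3 genes were also low in the Fadd line, with at most 2.48 CPM of Postn, 3.93 CPM of Actg2 and 0.0854 CPM of Igfbp5.

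**Figure D4:**
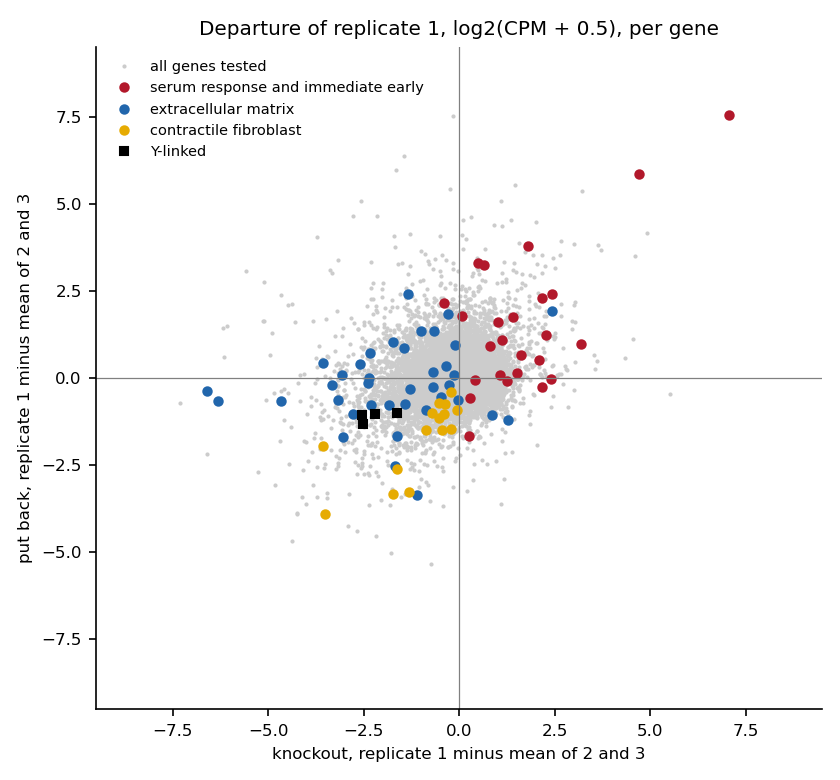
Each point is 1 of 16396 genes, with replicate 1 minus the mean of replicates 2 and 3 in log2(CPM + 0.5) for the knockout group (horizontal) and the put-back group (vertical). Serum response genes (red) lie mostly right of or above 0, contractile genes (yellow) and the 4 Y-linked genes (black squares) lie at lower left, and many matrix genes (blue) are lower in the knockout group alone.

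**Figure D5:**
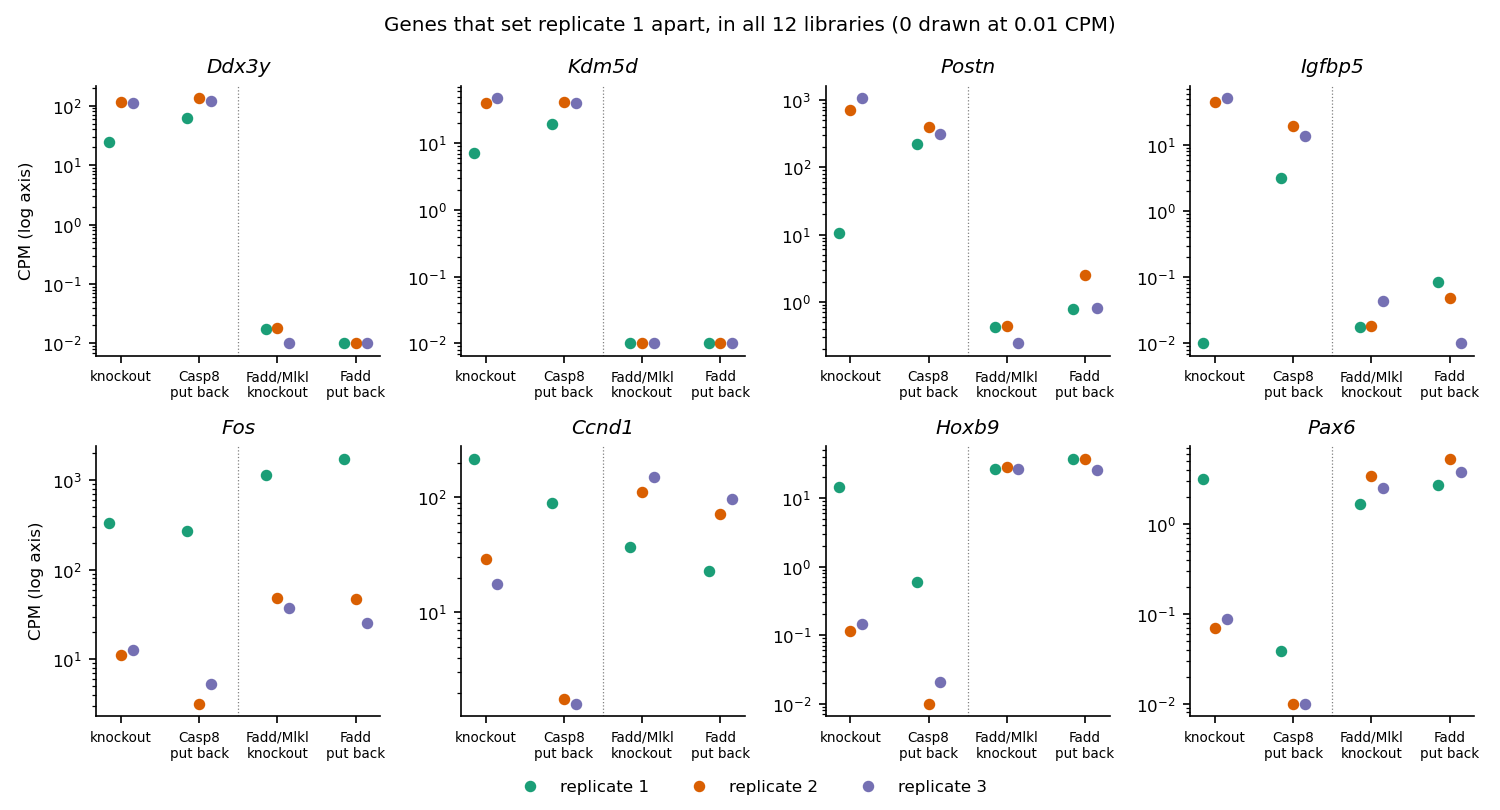
CPM (log axis) of 8 genes in all 12 libraries, 3 per group, with replicate 1 in green, 2 in orange and 3 in purple. Replicate 1 of the Casp8 line is low in Ddx3y, Kdm5d, Postn and Igfbp5, and knockout replicate 1 alone approaches the Fadd line in Hoxb9 and Pax6.

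Markers of the labelled cell type were present but uneven. Of 16 fibroblast markers 13 were tested, and Thy1, Lum and Fap stayed at or below 0.468 CPM in every library. Dcn was tested but also near 0 (at most 0.138 CPM). Summed over the list, fibroblast markers ran from 7948 to 20156 CPM in the knockout group, with knockout replicate 1 the lowest, and from 11738 to 16447 CPM in the put-back group. Fn1, which codes for fibronectin, was at 573, 2339 and 3411 against 873, 1446 and 1540 CPM.

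Markers of other cell types were low, apart from neural ones. Summed leukocyte markers ran from 3.20 to 6.02 CPM in the knockout group and 2.15 to 3.48 CPM in the put-back group (4 of 15 tested; Cd3e at 0). Summed muscle markers were 2.90 to 3.87 against 1.77 to 3.03 CPM (4 of 11 tested; Myod1 and Myog at 0), and epithelial markers 6.18 to 17.7 against 4 to 5.39 CPM (4 of 14 tested; Krt5, Cldn4, Cldn7 and Esrp1 at 0). Endothelial markers reached 69.4 CPM in put-back replicate 1, nearly all of it Flt1, with Pecam1 and Cdh5 at no more than 0.277 CPM. Neural markers summed to 256 to 613 CPM in the knockout group and 254 to 741 CPM in the put-back group. Of 13, 8 were tested, and the sum was carried by Map2, Nes, Sox2, Tubb3 and Stmn2, with Rbfox3, Snap25, Sox10 and Olig2 at 0. Stmn2, a microtubule regulator of neurons, was at 0.369, 22.5 and 20.6 against 1.59, 3.30 and 1.42 CPM.

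Beside the Fadd line, the change in the Casp8 line differed for 138 genes in the same edgeR fit (0.842%), 129 with a higher (0.787%) and 9 with a lower change (0.0549%) in the Casp8 line. The Fadd line itself had 250 calls (1.52%), 47 higher (0.287%) and 203 lower (1.24%) without Fadd. Grem1 had a log2 change of 2.88 in the Casp8 line and -9.55 in the Fadd line, a difference of 12.43 (SE 1.5, edgeR adjusted p = 0.00255). Slc16a3 had 3.74 and -4.97, a difference of 8.71 (SE 1.18, edgeR adjusted p = 0.00462), and Wnt10a 4.54 and -2.35 (difference 6.89, edgeR adjusted p = 0.0354). These 3 genes had a change above 0 in the Casp8 line and below 0 in the Fadd line. For Apobec3 the difference of 1.94 (SE 0.431) did not pass (edgeR adjusted p = 0.078). For Zbp1 the changes were 3.87 and 3.62, and the difference of 0.24 had a standard error of 1.4. Its levels were unlike, at 66.1, 7.28 and 13.0 CPM without Fadd and 0.235, 2.99 and 3.78 CPM with it. The Casp8/Mlkl knockout libraries held only 0.300 to 1.20 CPM. The interferon list had a median of 2.05 in the Casp8 line and 2.05 in the Fadd line, where no member's difference between lines was called. The libraries behind these medians differed. In the Fadd line the list's mean log2 level was 7.09, 5.33 and 5.34 without Fadd and 3.01, 4.37 and 4.45 with it, so replicate 1 had the widest gap there, while in the Casp8 line pair 1 was level.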

How the data were processed

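RNA from 12 cultures was sequenced as stranded total RNA, per the labels. Per the labels' protocols and the submitters' processing notes, the authors used Trim Galore 0.5.0 for trimming, STAR 2.7.5a for alignment (mm10, GENCODE M22) and RSEM for counting. The deposited tables hold expected counts per gene, per the file headers, with no normalisation, of which 96.1% of those above 0 are whole. TPM and FPKM columns, and a table of retrovirus regions, were not used here.

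Of 55665 rows per table, 92 spike-in rows with 0 counts were left out. Expected counts were rounded. Genes were kept by filterByExpr with a minimum count of 10, scaled by TMM and fitted in edgeR 4.0.16 (R 4.3.3) with the quasi-likelihood test and 1 mean per group over all 12 libraries, with Benjamini-Hochberg adjustment. The common coefficient of variation was 0.37. On simulated data for this comparison with that spread and 16396 genes, 3 of 50 genes with 2-fold, 41 of 50 with 4-fold and 50 of 50 with 8-fold changes were recovered. The simulated data had the same spread for all genes and no departure of replicate 1. Changes were planted only in genes with a mean count above 50. The simulation therefore cannot tell what share of real changes of these sizes would be called here. Pair differences use a pseudocount of 0.5 CPM. Alternatives were DESeq2 1.42.0, limma-voom (limma 3.58.1), other scalings and filters, replicate blocks and left-out libraries. Positions are from GENCODE M21 on the same genome, for 16392 of the genes tested. Counting intervals are exact binomial.

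Deviations from the group means correlated at 0.197, 0.308 and 0.111 between same-numbered libraries, and at -0.273 to 0.183 between the others. The highest of the others, knockout 2 with put-back 3, exceeds the same-numbered pair 3. Every same-numbered correlation was over 0.1, so the numbers are read as pairs within the line, as a hint from the data.

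The comparison, the 27 gene lists and the genes named were chosen with earlier results of these data known. Named genes are the core of the pathway, the 8 largest rises and falls at an unadjusted p under 0.05 without overlap and at 5 CPM or more, genes called with or without the block, up to 4 members per list by p, the 6 highest and lowest in replicate 1 at 20 CPM or more, and the 4 highest and lowest differences between lines. Y-linked and line-separating genes, and genes named from the fit without replicate 1, were chosen after their values were seen. Values of a few list members are not reported here.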

Additional observations from a re-analysis of the deposited data

Results flagged for a closer look

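The change in the Casp8 line differed from that in the Fadd line (interaction term in edgeR, adjusted p under 0.05) for 14 of the genes named. Casp8 and Fadd, each the gene removed in 1 line, differed by -3.45 and 7.94 on the log2 scale. The difference was positive for Cadm1 (15.59), Grem1 (12.43), Gpx7 (11.70), Erfe (11.53), Gas6 (10.49), Slc16a3 (8.71), Wnt10a (6.89), Unc93b1 (6.73) and Fbln1 (6.35). It was negative for Hoxc11 (-12.13), Negr1 (-7.34) and Hoxa11 (-3.79). Gpx7, Erfe and Gas6 had no counts in the Fadd/Mlkl knockout libraries and Hoxc11 none after Fadd was put back, so those fitted values depend on the prior count and are no bounds. The fitted change was larger in size in the Casp8 line for Casp8, Wnt10a and Unc93b1, and in the Fadd line for the other 11, for example -9.55 against 2.88 for Grem1, 3.22 against -0.57 for Hoxa11 and 6.84 against -0.50 for Negr1. Cadm1 had counts in the Casp8 line almost only in knockout replicate 1 (2.47 CPM, against at most 0.0389 CPM in the other 5 libraries), 107 counts against 3 (ratio 45.9, with a 95% counting interval of 15.3 to 226). Erfe, the hormone erythroferrone, was at 18.3, 16.5 and 18.2 CPM without caspase-8 and at 1.28, 4.25 and 6.09 CPM with it.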

How the results depend on the processing

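The Casp8 line gave 1 called gene (0 higher, 1 lower) with all libraries and no block. The count was 143 with DESeq2 (132 higher, 11 lower), 4 with no filter (3 higher), 0 with the 6 libraries of the line alone (0 lower), 6 with the replicate block within each line (5 higher), and 0 with the replicate block in the 6 libraries (0 lower). It was 111 without both replicate 1 libraries (99 higher, 12 lower), 4136 when these were left out and the block kept (2192 higher, 1944 lower), and 2923 without all 4 replicate 1 libraries (1651 higher, 1272 lower). With 1 library left out it ran from 0 to 22 (0 to 16 higher, 0 to 6 lower). The highest of these is without put-back replicate 1, and the count was 3, 0 and 2 without knockout replicate 1, 2 and 3. Scaling by size factors or by library size, a minimum count of 50, limma-voom, robust dispersion and a block over all 12 libraries kept the count at 1.

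The Casp8 change was below 0 in all settings run (-3.64 in the 6 libraries alone and -3.52 there with the replicate block, adjusted p = 0.28 and 0.838; -3.63 without knockout replicate 2, 0.0707), and its call was lost in these 3 alone. With 1 library left out it ran from -3.98 to -3.40. The difference between lines was called for 138 genes, against 420 with DESeq2, 239 with the replicate block within each line, 391 without both replicate 1 libraries, 3399 with these left out and the block kept, 1842 without all 4, and 90 to 241 with 1 library left out.

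Among single genes, signs turned mainly where replicate 1 was left out. For Sfrp2 (main value -4.82) the log2 change was 0.67 without both replicate 1 libraries, 0.70 with the block there, 0.68 without all 4 and 0.13 without put-back replicate 1. For Negr1 these were 0.57, 0.60, 0.58 and 0.90, and 0.0496 with limma-voom. For Cadm1 they were -2.21, -2.26 and -2.18, and -3.06 without knockout replicate 1. Without that library Hoxb9 gave -0.67, Hoxb6 -0.57 and Ankrd1 -0.29, and Cflar gave -0.0126 without knockout replicate 3 and -0.0641 without put-back replicate 1. The causes were not tested. The replicate block within each line changed no other call among named genes than Lamb1, Grem1, Slco2a1, Hoxb9 and Pax6.

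With 1 library left out the log2 change ran from -0.0641 to 0.14 in Cflar, -0.67 to 8.64 in Hoxb9, -0.57 to 5.52 in Hoxb6, -0.29 to 2.07 in Ankrd1, -5.39 to 0.13 in Sfrp2, -0.94 to 0.90 in Negr1 and -3.06 to 6.12 in Cadm1.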
